A study of Mus musculus with 13 samples.

Results

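The comparison set 4 libraries of induced pluripotent stem cells (iPSC) that the labels mark as XO, with a single X chromosome, against 2 libraries of mouse embryonic fibroblasts (MEF), the somatic cell type that reprogramming commonly starts from. The XO libraries (numbered 3, 5, 6 and 9) were labelled female and came from iPSC depleted of feeder cells, and the MEF libraries (numbered 4 and 5) were labelled male. Strain, age, passage and the reprogramming factors were not given in the sources used here, so cell type, labelled sex and origin of the line cannot be told apart. Separate lines, animals or cultures are not stated for the replicates, so p-values speak of the variation among these libraries alone, which may in part be technical. The unit of description was the 1 kb tile of autosomes 1 to 19 with at least 3 CpGs and 10 reads in each of the 6 libraries. These were 78567 of the 539151 autosomal tiles with any read in the 13 libraries of the series (14.6%). The level of a tile was its methylated reads as a percentage of all its reads. Reads were counted at each CpG and summed, so a read that covers several CpGs counts at each of them.

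In mammals a methyl group is placed on the cytosine of CpG dinucleotides, most of which are methylated in somatic cells outside CpG islands, the CpG-rich stretches found at many promoters. Somatic cells keep a set of germline gene promoters methylated and silent, one allele of imprinted regions methylated by parental origin, and most transposable elements methylated. Reprogramming to pluripotency rewrites this pattern, and cultured pluripotent cells with a single X are known to be more methylated than those with a pair of active X chromosomes. Reduced representation bisulfite sequencing (RRBS) reads the CpG-rich fragments released by a restriction enzyme, so regions with few CpGs are covered thinly. An intermediate level can stand for a mix of cells, of alleles or of CpGs, which cannot be told apart in bulk DNA.

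Some stretches of sequence at which the groups differed most, or which carry recurrent arrays treated further on, are shown first. The following 6 are the 250 bases before a RefSeq transcription start, taken from the RefSeq promoter table (GRCm38.p6) and placed in the deposited mm9 tables by the spacing of their CpGs; capitals mark CpGs read in XO or MEF libraries. Jade1 (chr3:41359406-41359655, plus strand) is shown for the deepest loss of any promoter tile, and Zglp1 (chr9:20871538-20871787, minus) as another of the largest losses. D1Pas1 (chr1:188791045-188791294, plus) and Mael (chr1:168168876-168169125, minus) are shown as listed germline promoters. Mcts2 (chr2:152512634-152512883, plus) is shown as an imprinted one, and Dpep1 (chr8:125709885-125710134, plus) as a promoter with a gain and only 7 CpGs.
Jade1: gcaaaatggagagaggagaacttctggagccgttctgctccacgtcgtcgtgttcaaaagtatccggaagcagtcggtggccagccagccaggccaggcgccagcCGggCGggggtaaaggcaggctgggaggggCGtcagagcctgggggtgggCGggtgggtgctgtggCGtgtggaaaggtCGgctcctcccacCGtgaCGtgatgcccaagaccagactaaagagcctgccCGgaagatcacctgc
D1Pas1: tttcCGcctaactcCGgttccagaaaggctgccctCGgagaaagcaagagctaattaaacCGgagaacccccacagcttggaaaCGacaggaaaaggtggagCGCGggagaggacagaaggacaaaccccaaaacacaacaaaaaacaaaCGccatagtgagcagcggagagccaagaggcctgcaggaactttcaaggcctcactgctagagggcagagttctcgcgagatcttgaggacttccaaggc
Zglp1: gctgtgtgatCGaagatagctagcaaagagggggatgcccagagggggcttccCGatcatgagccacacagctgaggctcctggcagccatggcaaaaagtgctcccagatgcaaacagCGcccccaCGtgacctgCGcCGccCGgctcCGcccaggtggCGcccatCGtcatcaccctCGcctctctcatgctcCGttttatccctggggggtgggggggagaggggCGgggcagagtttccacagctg
Mael: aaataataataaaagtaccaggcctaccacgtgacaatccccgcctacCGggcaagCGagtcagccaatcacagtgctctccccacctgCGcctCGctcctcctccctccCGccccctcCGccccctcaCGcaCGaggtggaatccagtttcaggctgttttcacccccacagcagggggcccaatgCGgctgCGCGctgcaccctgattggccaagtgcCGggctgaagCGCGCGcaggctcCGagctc
Mcts2: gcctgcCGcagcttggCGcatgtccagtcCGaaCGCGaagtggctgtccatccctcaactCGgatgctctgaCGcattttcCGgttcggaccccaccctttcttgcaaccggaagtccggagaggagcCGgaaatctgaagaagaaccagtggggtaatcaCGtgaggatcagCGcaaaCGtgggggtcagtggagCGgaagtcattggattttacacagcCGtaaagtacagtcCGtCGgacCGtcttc
Dpep1: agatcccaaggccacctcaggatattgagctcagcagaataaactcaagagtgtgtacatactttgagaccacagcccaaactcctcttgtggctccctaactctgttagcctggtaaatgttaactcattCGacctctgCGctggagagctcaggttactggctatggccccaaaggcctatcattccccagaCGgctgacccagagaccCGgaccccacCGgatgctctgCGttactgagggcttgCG

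Read depth and the sex chromosomes were examined before the levels. The libraries held 4784488 to 99546564 reads over CpGs in XO iPSC and 11337174 to 25835728 in MEF, and the median reads per tile were 88, 133, 525 and 24 in XO 3, 5, 6 and 9, against 44 and 101 in MEF 4 and 5. The mean depth of X-linked over autosomal CpGs was 0.873, 0.867, 0.763 and 0.902 in XO 3, 5, 6 and 9 and 0.760 and 0.907 in MEF 4 and 5, beside 0.763 to 0.775 in the 3 male iPSC libraries and 0.927 and 0.967 in those labelled XaXa. Reads on the Y chromosome came to 0.0397% to 0.0468% of autosomal reads in XO iPSC, against 0.0913% in MEF 4 and 0.0219% in MEF 5. XO 6 thus matched the labelled single X by depth, XO 3, 5 and 9 lay between the male and XaXa libraries, and MEF 5 went against its male label. The mean level, class and density values are therefore also given for XO 6 alone and without MEF 5.

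XO iPSC were less methylated than MEF over the autosomal tiles, and of the 14787 tiles called lower 8902 were above 80% and 5346 between 20% and 80% in MEF. The mean tile level was 54.3%, 52.0%, 52.5% and 46.8% in XO 3, 5, 6 and 9 (51.4 ± 3.20, SD, n = 4), against 58.0% and 59.7% in MEF 4 and 5 (58.8 ± 1.17, SD, n = 2). All 4 XO libraries lay below both MEF libraries, a difference of -7.42 points (exact two-sided permutation test, p = 0.0667, the smallest that 15 splits of 6 libraries allow). XO 6 alone differed from MEF by -6.30 points, and the 4 XO libraries differed from MEF 4 by -6.60 points. Every autosome had a negative difference, between -9.06 points on chromosome 17 and -5.91 points on chromosome 13.

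Tile by tile, losses outnumbered gains. A tile was called when the quasi-binomial test gave an adjusted p under 0.05 over all tiles and the group means differed by at least 10 points. By this rule 14787 tiles (18.8%) were lower and 4809 (6.12%) higher in XO iPSC. In 14388 of the lower tiles and 4370 of the higher tiles the XO and MEF libraries did not overlap, beside 34.7% of all tiles with every XO library below both MEF libraries and 10.9% with every XO library above them. A limma fit on log2 ratios called 13827 lower (17.6%) and 3050 higher (3.88%), of which 11786 and 2731 were shared with the first test. Without MEF 5 the numbers were 3910 lower and 1445 higher, and without MEF 4 they were 10816 and 3036. With 1 MEF library left, in either case, the spread comes from the XO libraries alone and 1 degree of freedom is lost. Why fewer calls remained without MEF 5 than without MEF 4 was not tested.

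Called tiles were on average partly methylated in XO iPSC. Over the lower tiles, chosen by these values and so given as a description, the mean level was 42.3%, 39.4%, 40.1% and 32.9% in XO 3, 5, 6 and 9, against 74.6% and 76.0% in MEF 4 and 5. Over the higher tiles it was 74.1%, 71.7%, 71.2% and 65.2% in the XO libraries, against 38.4% and 42.4% in the MEF libraries. Libraries that took no part in the calls stood at 34.2% to 38.9% (3 male iPSC), 25.6% and 19.06% (XaXa 7 and 8) and 74.2% and 72.9% (SSEA1 negative and positive cells of reprogramming cultures) over the lower tiles. Over the higher tiles the same libraries stood at 66.5% to 71.6%, 47.4% and 39.03%, and 42.0% and 41.4%. Full switches were few: 195 tiles were above 80% in both MEF libraries and below 20% in all 4 XO libraries, and 13 tiles were below 20% in both MEF libraries and above 80% in all 4 XO libraries.

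XO 9, the shallowest library, was the lowest of the 4 XO libraries in 59.8% of the lower tiles and also in 58.0% of the higher tiles. Its part in the calls was small by count: without it 13222 tiles were lower and 4347 higher. The median SD of a tile was 5.86 points over the 4 XO libraries and 4.13 points over the 2 MEF libraries. Across tiles, which share library and depth, the Pearson correlation of levels was 0.910 to 0.969 between XO libraries, 0.736 to 0.824 between XO and MEF libraries, and 0.936 between MEF 4 and MEF 5.

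The starting level in MEF and the density of CpGs were then crossed. Density was the number of CpGs in the tile read in any library. The class used the same MEF values as the difference. Lack of overlap and p within a class, here and below, were partly set by that choice and are a description. Tiles above 80% in MEF (31924) averaged 74.0%, 71.2%, 73.5% and 66.5% in XO 3, 5, 6 and 9, against 88.8% and 87.7% in MEF 4 and 5, a difference of -17.0 points with no overlap (exact permutation p = 0.0667). Of these, 27.9% were called lower and 0.0407% higher. Tiles between 20% and 80% in MEF (28192) differed by -2.62 points (exact permutation p = 0.6), with 18.96% called lower and 13.1% higher, so that opposite changes nearly cancelled. Tiles below 20% in MEF (18451) differed by 1.82 points (exact permutation p = 0.2), with 2.92% called lower and 5.95% higher. For XO 6 alone against MEF the 3 differences were -14.8, -1.68 and 1.39 points from the highest class to the lowest, and without MEF 5 they were -19.1, -0.516 and 4.13 points. The middle value was also -0.534 points without XO 9, -7.19 points when the class came from MEF 4 and the difference from MEF 5, and -12.2 points in the 1409 tiles with 50 or more reads. The sizes in the middle and low classes thus depended on the libraries and tiles used.

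Losses deepened with CpG density where MEF was methylated. Among tiles above 80% in MEF, those with 3 to 9 CpGs averaged 74.8 ± 3.93% in XO iPSC and 88.5 ± 0.984% in MEF (SD, n = 4 and 2), a difference of -13.6 points over 15572 tiles. The difference was -16.4 points with 10 to 19 CpGs (10823 tiles) and -25.5 points with 20 to 39 CpGs (4373 tiles). At 40 or more CpGs (1156 tiles) the levels were 51.5%, 44.6%, 58.2% and 51.1% in XO 3, 5, 6 and 9, against 87.1% and 86.9% in MEF 4 and 5, a difference of -35.6 points. The share called lower was 21.1%, 28.6%, 42.0% and 59.3% in the 4 density classes from sparse to dense. The same order held between 20% and 80% in MEF, with differences of 2.01, -4.86, -18.4 and -27.4 points and 11.04%, 22.2%, 45.8% and 70.8% called lower.

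**Figure D1:**
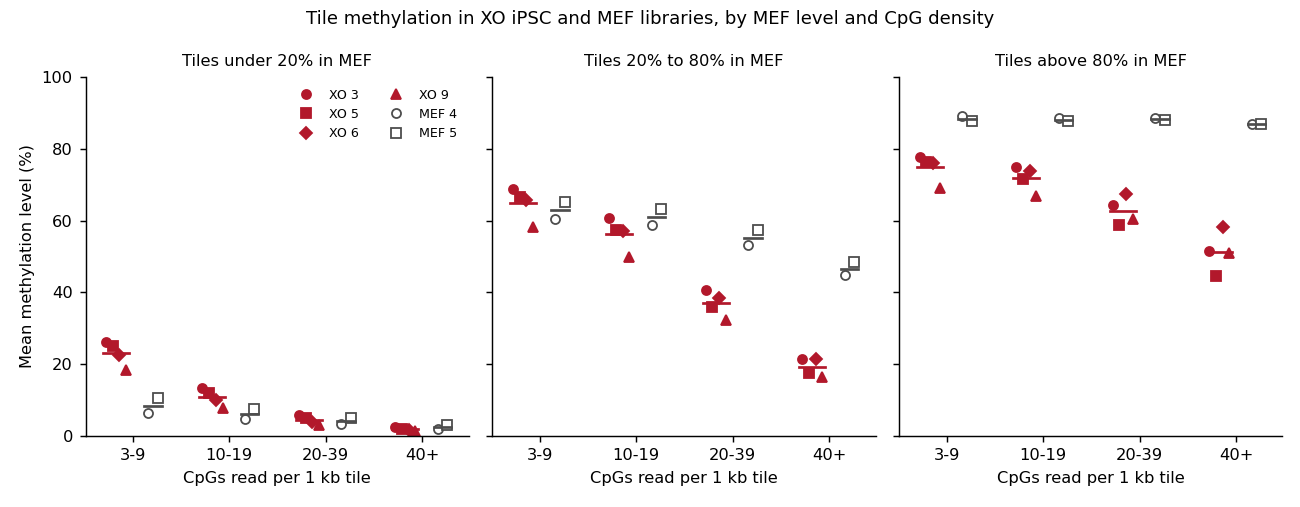
Mean tile methylation (%, vertical axis) in each XO iPSC (filled red) and MEF (open grey) library, by CpGs read per tile (horizontal axis) and by MEF level (panels); horizontal strokes are group means. For tiles above 80% in MEF the XO means descend with density to 51.4% at 40 or more CpGs, against 87.0% in MEF.

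The dependence on density was tested on 1 value per library, the mean level of tiles with 20 or more CpGs minus that of tiles with 3 to 9 CpGs, within tiles above 80% in MEF. It was -16.1, -20.7, -10.5 and -10.5 points in XO 3, 5, 6 and 9, against -0.867 and -0.0460 points in MEF 4 and 5. The groups did not overlap (difference -14.0 points, exact permutation p = 0.0667, within a class chosen by the MEF values). For XO 6 alone against MEF the contrast was -10.05 points, and without MEF 5 it was -12.7 points. Restricted to CpGs with 10 or more reads in each of the 6 libraries, which left 1708 tiles of all classes and 93 dense tiles above 80% in MEF, the contrast was -0.553 points (exact permutation p = 0.8).

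Gains showed the opposite dependence. Among tiles below 20% in MEF, those with 3 to 9 CpGs (1512 tiles) averaged 26.2%, 24.9%, 22.6% and 18.4% in XO 3, 5, 6 and 9, against 6.45% and 10.4% in MEF 4 and 5. All XO libraries were higher, by 14.6 points on average (exact permutation p = 0.0667, in a class chosen by the MEF values). Of these tiles 29.1% were called higher. With 10 to 19 CpGs the difference was 4.61 points (12.3% called higher), with 20 to 39 CpGs 0.347 points (3.38%) and with 40 or more CpGs -0.642 points (0.892%). CpG-dense tiles unmethylated in MEF, the class of most CpG island promoters, thus averaged 1.85 ± 0.490% in XO iPSC and 2.49 ± 0.827% in MEF (SD, n = 4 and 2). Most gains by number were not in these tiles: 2383 of the 4809 lay in tiles of 3 to 9 CpGs at 20% to 80% in MEF. That class is large (15731 tiles), and 15.1% of it was called higher, beside 6.12% of all tiles.

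**Figure D2:**
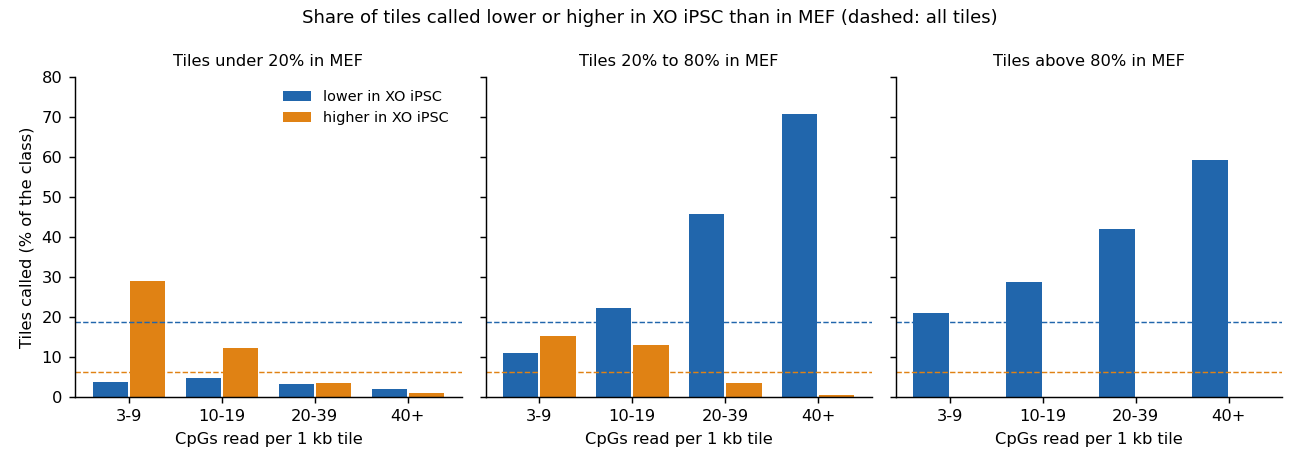
Share of tiles (%, vertical axis) called lower (blue) or higher (orange) in XO iPSC than in MEF, by CpGs read per tile and by MEF level (panels); dashed lines give the shares over all tiles, 18.8% lower and 6.12% higher. Losses reach 70.8% in dense tiles at 20% to 80% in MEF, and gains reach 29.1% in sparse tiles below 20% in MEF.

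Because the class of a tile and its difference share the MEF values, the class was also taken from one MEF library and the difference from the other. Classed by MEF 4 and compared with MEF 5, tiles above 80% differed by -14.8 points, and by -34.7 points at 40 or more CpGs. Classed by MEF 5 and compared with MEF 4, they differed by -14.2 and -34.7 points. The gain in tiles below 20% with 3 to 9 CpGs was 10.9 and 12.1 points in the same 2 ways. Differences near zero did not keep their sign: tiles of 3 to 9 CpGs at 20% to 80% gave -2.82 and 1.33 points, and tiles of 20 to 39 CpGs below 20% gave -1.02 and 0.5004 points.

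**Figure D3:**
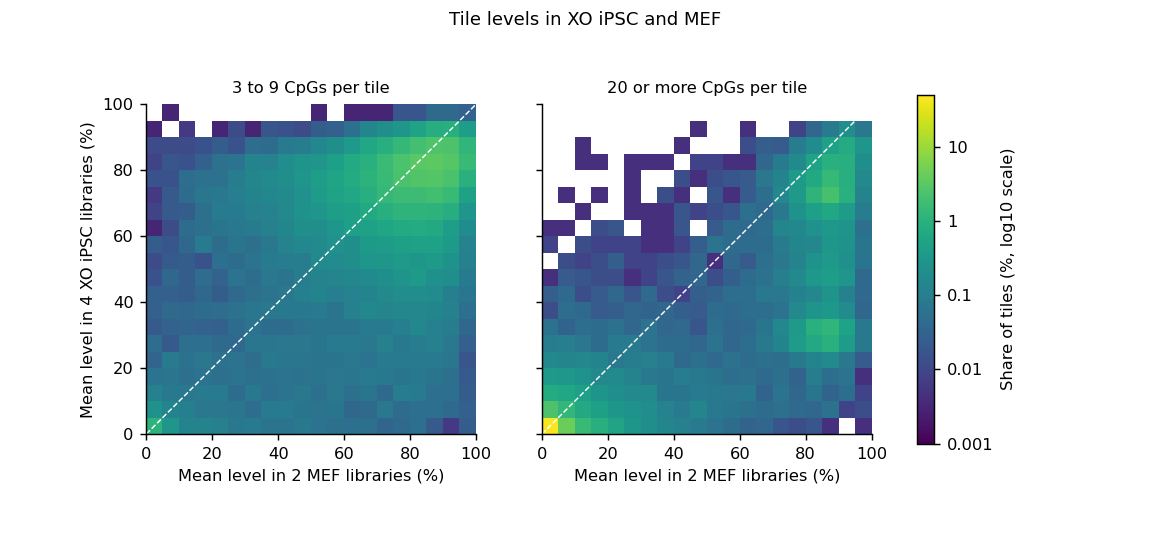
Share of tiles (colour, log10 scale) by mean level in the 4 XO iPSC libraries (vertical axis, %) and the 2 MEF libraries (horizontal axis, %), for tiles of 3 to 9 CpGs (left) and of 20 or more CpGs (right); the dashed line marks equal levels. Dense tiles methylated in MEF form separate groups, one near 70% to 80% and one near 20% to 40% in XO iPSC.

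The dense, methylated tiles fell into separate groups by level. Of the 5529 tiles above 80% in MEF with 20 or more CpGs, 1681 lay at 70% to 80% in XO iPSC, 563 at 20% to 30% and 811 at 30% to 40%, with 366 at 40% to 50% and 372 at 50% to 60% in between. This prompted a search, made after the levels were seen and using no methylation value, for recurrent CpG arrays: runs of 5 consecutive CpGs whose spacings and flanking bases were found at 5 or more places in the tables. Such arrays were present in 16367 tested tiles (20.8%), but in 4290 of the 5529 dense tiles above 80% in MEF (77.6%). Arrays found in 200 or more tested tiles were joined into 9 families when they shared at least 50% of the tiles of the smaller. No repeat annotation of mm9 was used here, so the families are numbered by size and not named. Reads of near-identical copies may have been placed at any of them, and how the aligner treated such reads was not given in the sources used here, so tiles of 1 family are not independent and the counts carry no p.

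To show what such arrays look like, the 250 bases before a RefSeq start that hold arrays of the 3 families described next are printed, with capitals marking CpGs inside the arrays. They are the starts with the most arrays of the family wholly inside these bases: A230004M16Rik on chromosome 11 (family 1, 15 CpGs), Gm35240 on chromosome 12 (family 2, 10 CpGs) and Gm5636 on chromosome X (family 4, 16 CpGs), all from the GRCm38.p6 table.
A230004M16Rik: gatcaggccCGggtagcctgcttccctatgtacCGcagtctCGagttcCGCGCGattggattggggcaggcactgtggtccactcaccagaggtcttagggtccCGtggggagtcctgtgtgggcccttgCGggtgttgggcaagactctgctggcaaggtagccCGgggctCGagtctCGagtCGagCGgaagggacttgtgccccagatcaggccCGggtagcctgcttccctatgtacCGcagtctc
Gm35240: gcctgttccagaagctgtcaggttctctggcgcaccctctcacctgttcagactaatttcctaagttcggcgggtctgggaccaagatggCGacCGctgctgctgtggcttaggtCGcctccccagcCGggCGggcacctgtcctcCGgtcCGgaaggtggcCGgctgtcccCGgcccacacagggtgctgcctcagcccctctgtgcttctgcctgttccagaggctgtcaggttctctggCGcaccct
Gm5636: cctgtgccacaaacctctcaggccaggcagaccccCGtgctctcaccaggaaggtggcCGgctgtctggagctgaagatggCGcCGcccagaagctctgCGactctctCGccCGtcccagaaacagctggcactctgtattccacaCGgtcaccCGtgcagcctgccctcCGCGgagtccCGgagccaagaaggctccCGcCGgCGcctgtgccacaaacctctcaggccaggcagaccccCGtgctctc

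Families with the same level in MEF differed widely in XO iPSC. Family 1 (2445 tiles, median 24 CpGs) averaged 71.2%, 62.9%, 80.2% and 77.0% in XO 3, 5, 6 and 9, against 85.1% and 85.6% in MEF 4 and 5. All XO libraries were lower (-12.5 points, exact permutation p = 0.133), and 68 of the 2445 tiles were called lower, 2.78% beside 18.8% of all tiles. Family 2 (1684 tiles, median 32 CpGs) averaged 31.8%, 27.5%, 37.6% and 27.7% in XO 3, 5, 6 and 9, against 84.7% and 85.1% in MEF 4 and 5. Every XO library was lower than both MEF libraries (-53.8 points on average, exact permutation p = 0.0667), and 1610 of its 1684 tiles (95.6%) were called lower. From tile to tile its level hardly varied, the 10th and 90th percentiles of the XO mean being 26.1% and 36.0%.

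Set directly against each other, family 2 minus family 1 was -39.4, -35.4, -42.6 and -49.3 points in XO 3, 5, 6 and 9, against -0.337 and -0.495 points in MEF 4 and 5. The groups were far apart (difference -41.3 points, exact permutation p = 0.0667). Family 4 (572 tiles) lay between them, at 59.0%, 50.8%, 57.0% and 47.5% in XO 3, 5, 6 and 9, against 86.1% and 85.4% in MEF 4 and 5, and 448 of its tiles (78.3%) were called lower. Family 3 (1050 tiles, median 13 CpGs) averaged 85.9 ± 2.03% in XO iPSC and 83.9 ± 0.119% in MEF (SD, n = 4 and 2). Of its tiles 3 were called lower (0.286%) and 97 higher (9.24%), beside 18.8% and 6.12% of all tiles. Family 5 (438 tiles) averaged 90.3 ± 1.74% in XO iPSC and 87.5 ± 0.435% in MEF, and no tile was called lower.

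The smaller families spanned the same range. Family 8 (270 tiles) averaged 53.8% in XO iPSC and 74.2% in MEF, with 129 tiles called lower (47.8%, beside 18.8% of all tiles). Family 7 (325 tiles) averaged 84.8% and 92.5%, with 43 called lower (13.2%). Family 9 (218 tiles) averaged 81.3% and 84.4%, with 11 called lower (5.05%). Family 6 (411 tiles, median 80 CpGs) came from 1 array in very CpG-rich sequence, and its tiles were at 1.71% in XO iPSC and 3.11% in MEF. Libraries outside the comparison ordered families 1, 2 and 4 in the same way: the male iPSC libraries were at 62.2% to 72.4%, 25.2% to 30.5% and 50.2% to 51.2%, while the SSEA1 negative and positive libraries were at 81.7% to 84.7% in all 3. In XaXa 7 and 8 the levels were 42.9% and 32.3% for family 1 and 23.6% and 17.7% for family 2.

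**Figure D4:**
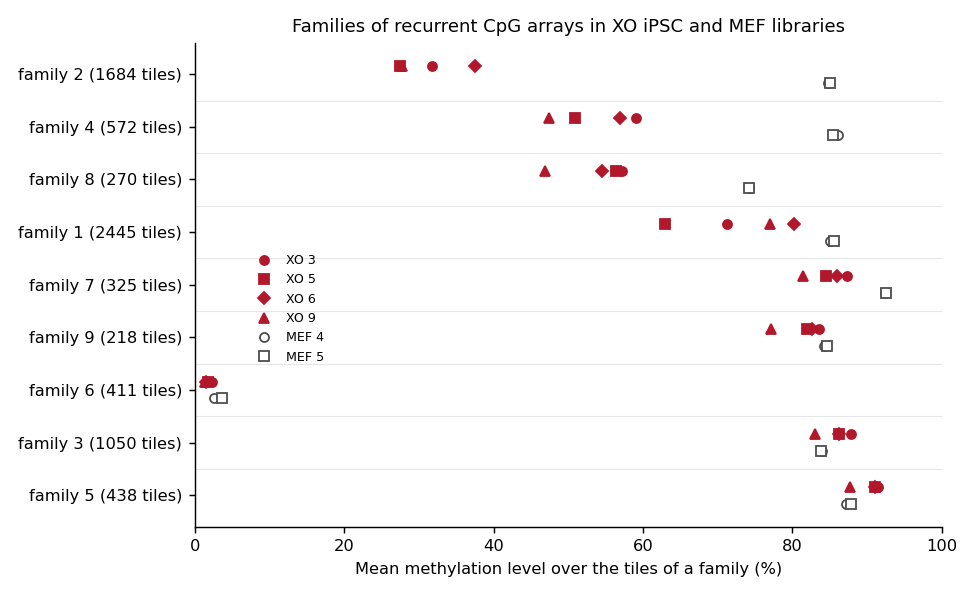
Mean methylation (%, horizontal axis) over the tiles of each family of recurrent CpG arrays, for each XO iPSC (filled red) and MEF (open grey) library, families ordered by the difference. Families 2, 4 and 8 lie far below MEF, and families 3 and 5 do not, although all but family 6 are above 70% in MEF.

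The dependence on density was also present outside recurrent arrays. Among tiles above 80% in MEF without such an array, the difference was -14.1 points with 3 to 9 CpGs (14212 tiles), -18.5 points with 10 to 19 (6969 tiles), -29.8 points with 20 to 39 (1191 tiles) and -53.5 points with 40 or more (48 tiles). A refit without such tiles called 11656 of 62200 lower (18.7%) and 4701 higher (7.56%). The contrast of dense with sparse tiles was -16.7 points without them (exact permutation p = 0.0667). Of the 2523 dense tiles above 80% in MEF that were called lower, 1165 belonged to family 2 and 345 to family 4. Of the 195 full switches to a low level, 7 held a recurrent array.

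Position relative to genes was read from the RefSeq promoters placed in the tables. Within 1 kb of a placed start, 7.11% of 9567 tiles were called lower and 1.49% higher. At 1 to 5 kb these shares were 28.8% and 3.94%, at 5 to 20 kb 28.4% and 4.46%, at 20 to 100 kb 21.6% and 6.66%, and beyond 100 kb 15.8% and 8.03%. Losses were thus most frequent at 1 to 20 kb from placed starts and gains beyond 100 kb, though density and MEF level also change along this axis. Only starts placed by 8 or more CpGs were used here, 10499 of 31396 autosomal promoters. A tile far from a placed start may therefore lie near one that was not placed.

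The deepest losses were near complete in every XO library. A tile on chromosome 5 from 114393001 to 114394000 (11 CpGs, 34.8 kb from the Coro1c start) was at 4.35%, 1.73%, 2.06% and 0% in XO 3, 5, 6 and 9, against 97.4% and 96.2% in MEF 4 and 5. The groups stood at opposite ends of the scale (-94.7 points, adjusted p = 3.46e-05). A CpG-dense tile on chromosome 12 from 109154001 to 109155000 (73 CpGs, 87.1 kb from the start of Bcl11b, a T-cell transcription factor) was at 8.79%, 4.505%, 6.24% and 0% in the XO libraries, against 94.3% and 96.8% in the MEF libraries (-90.6 points, adjusted p = 6.07e-06). The other 8 of the 10 largest losses differed by -93.8 to -88.7 points. Among them were tiles at 8.56, 14.3, 31.8 and 34.1 kb from the placed starts of Rxfp4, Lxn, Dnmbp and Rbpj, in this order. In these 10 tiles the 3 male iPSC libraries read 0% to 18.6%, and the SSEA1 libraries with 10 or more reads 68.2% to 100%.

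The largest gains lay far from placed starts. A tile on chromosome 6 (118934001 to 118935000, 6 CpGs) lay 124 kb from the placed start of Cacna1c, a calcium channel gene. It was at 93.0%, 86.1%, 89.3% and 92.9% in XO 3, 5, 6 and 9, against 0% and 7.55% in MEF 4 and 5. A tile on chromosome 13 (52097001 to 52098000, 11 CpGs) lay 155 kb from the placed start of Gadd45g. It was at 83.5%, 86.1%, 84.6% and 90% in the XO libraries, against 3.23% and 3.92% in the MEF libraries. The differences were 86.5 points (adjusted p = 0.000168) and 82.5 points (adjusted p = 3.88e-05); all 20 tiles described were chosen among those without overlap. The 10 largest gains differed by 73.4 to 86.5 points, held 5 to 13 CpGs and lay 33.1 to 411 kb from the nearest placed start. None of these 20 tiles held a recurrent array, and the XaXa libraries read 34.1% to 72.9% in the 10 gained ones.

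Promoter tiles were mostly unmethylated in both groups, with smaller shares called than over all tiles. Of 7175 genes whose promoter was placed by 8 or more CpGs and whose tile was tested, 379 were called lower (5.28%) and 78 higher (1.09%). Each gene was counted by its start with the most matched CpGs. The median difference was -0.349 points, since 5796 of these promoter tiles were below 10% in all 6 libraries. Where the promoter tile was above 50% in MEF (163 genes), 91 were called lower (55.8%).

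Jade1, which encodes a subunit of a histone acetyltransferase complex, had the largest difference, at a start other than the one counted above. Its promoter tile (17 CpGs) was at 4.07%, 4.32%, 1.53% and 0% in XO 3, 5, 6 and 9, against 100% and 92.6% in MEF 4 and 5 (-93.8 points, adjusted p = 2.94e-05). The groups were fully separated. In the 250 bases printed above, counts summed over CpGs were 1007 in XO iPSC and 85 in MEF. The libraries stood there at 0% to 5.10% and 91.0% to 100%. Only 1 CpG there had 10 or more reads in both groups, at 2.38% in XO iPSC and 97.7% in MEF. The other 3 starts of Jade1, 7649 to 9146 bases downstream, were at 0% to 3.66% in XO iPSC and 0% to 11.1% in MEF wherever they had reads, so the methylated state in MEF was seen at the first start alone.

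Zglp1, a GATA-type zinc finger gene of the gonad, was at 26.8%, 21.6%, 20.4% and 24.1% in XO 3, 5, 6 and 9, against 94.7% and 85.6% in MEF 4 and 5 (-67.0 points, adjusted p = 4.34e-05), with no overlap. Mybbp1a, whose product binds MYB in the nucleolus, was at 0%, 0%, 1.17% and 0% in XO iPSC, against 71.8% and 66.3% in MEF. Its loss lay in the tile and not in the 300-base promoter, which averaged 0% in XO iPSC and 0.521% in MEF. The difference depended on how CpGs were weighted, being -68.7 points over summed reads and -9.37 points, too little for a call, over the unweighted mean of the CpG levels. Among the other largest losses were Gm52569 (-82.5 points), CN725425 (-71.8), Gm16206 (-69.7), Ttyh2 (-64.1), a chloride channel gene whose tile holds a recurrent array, and Crb2 (-63.3), an apical polarity gene.

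Promoter tiles with gains were fewer, and most of the 10 largest lost their call when some library was left out. Gatm, which encodes the first enzyme of creatine synthesis, was at 83.7%, 86.2%, 39.9% and 46.7% in XO 3, 5, 6 and 9, against 0% and 3.39% in MEF 4 and 5. The groups did not overlap, but the XO libraries fell into separate levels, and the call (62.4 points, adjusted p = 0.0473) was lost without XO 9, MEF 4 or MEF 5. The gain lay in the tile: the 300-base promoter was at 2.31% in XO 6, the only XO library with enough reads there, against 0% and 3.39% in MEF. Dpep1, a dipeptidase gene of the kidney, was at 86.1%, 76.2%, 69.6% and 61.5%, against 10% and 46.2% (45.3 points, adjusted p = 0.0456), and lost its call without any one of XO 5, XO 9, MEF 4 and MEF 5. Neurod2, a neuronal transcription factor gene, was at 23.9%, 23.8%, 27.2% and 57.1% in XO iPSC, against 0% and 0% in MEF (33.0 points, adjusted p = 0.0102, lost without either MEF library). Calls for Gm42788 (37.8 points), Gm30881 (37.8), Calml4 (36.7), B230110C06Rik (33.9), Aknaos (32.2), Mthfsl (31.1) and Matn4 (30.6) completed the 10 largest gains. The tiles of Gatm and Neurod2 hold a recurrent array. Of these 10, Gm30881 and B230110C06Rik kept their call without each library in turn. Gm30881 however differed by 0.289 points over the CpGs read in each of the 6 libraries (adjusted p = 0.547) and by -3.22 points over unweighted CpG levels (adjusted p = 0.0575), and its 300-base promoter was at 0% in XO 3, 5 and 6, against 0% and 10.3% in MEF. Over unweighted CpG levels Aknaos and Matn4 differed by 8.42 and 8.39 points, too little for a call, and the 300-base promoter of Matn4 was at 6.25% in XO 5 and 0% in XO 6, with too few reads in MEF.

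Germline genes were the listed group with the most losses. Of 70 listed genes, 27 were placed by 8 or more CpGs and 18 had a tested tile, of which 11 were called lower and none higher (61.1%, beside 5.28% of all genes). Read against promoters of the same starting level the difference was smaller: 9 of the 12 germline promoters above 50% in MEF were called lower, beside 55.8% of all such promoters. The median difference was -16.7 points. The count was 4 of 18 without MEF 5 and 7 of 14 with CpGs read in each library.

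Tex14, needed for the bridges between germ cells, shares its promoter tile with Rad51c, a recombination gene on the opposite side. This tile was at 6.53%, 8.11%, 4.78% and 2.15% in XO 3, 5, 6 and 9, against 74.5% and 85.3% in MEF 4 and 5 (-74.5 points, adjusted p = 3.51e-05). D1Pas1, a testis RNA helicase gene, was at 8.23%, 12.8%, 38.8% and 17.1% in XO iPSC, against 94.4% and 88.2% in MEF (-72.1 points, adjusted p = 0.0008). Both were fully separated, and XO 6 was the highest of the XO libraries at D1Pas1. In the 250 bases of D1Pas1 printed above, counts summed over CpGs were 148 in XO iPSC and 547 in MEF. There 4 CpGs had 10 or more reads in both groups.

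Mael, a gene of the piRNA pathway that silences transposons in the germline, was at 34.8%, 27.8%, 30.3% and 18.3% in XO 3, 5, 6 and 9, against 77.8% and 75.5% in MEF 4 and 5 (-48.8 points, adjusted p = 0.000287). Slc25a31, the germ-cell ADP/ATP carrier, was at 50.3%, 41.1%, 49.2% and 32.5%, against 100% and 90.2% (-51.9 points, adjusted p = 0.00104, lost without MEF 5). Their XO levels stayed well above zero in every library while not reaching MEF. Ddx4, the germline helicase gene known as vasa, was at 44.0%, 22.3%, 16.5% and 6.67% in XO iPSC, against 50% and 88.8% in MEF (-47.1 points, adjusted p = 0.00215, lost without MEF 5). The Ddx4 tile holds a recurrent array. Meioc, a meiotic regulator, was at 58.8%, 54.2%, 54.4% and 47.3%, against 88.8% and 76.2%, but its 300-base promoter was at 2.30% in XO iPSC and 8.33% in MEF 5, so the difference lay beside it.

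Hormad1, of the meiotic chromosome axis (-33.8 points), Dazl, a germ-cell RNA-binding gene (-27.7), Smc1b, the meiotic cohesin (-18.3), Rbm46, an RNA-binding gene of meiosis (-15.0), and Fkbp6, a co-chaperone of the piRNA pathway (-11.7), were called with adjusted p between 0.0147 and 0.0470, and each lost its call without more than one library. These were XO 6 or MEF 5 for Hormad1 and Dazl, MEF 4 or MEF 5 for Rbm46, XO 3, XO 9, MEF 4 or MEF 5 for Smc1b, and any library but XO 3 for Fkbp6. For Smc1b and Rbm46 the 300-base promoter did not show the loss of the tile. It was at 16.7%, 0% and 0.402% in XO 3, 5 and 6, against 0% and 5.08% in MEF, for Smc1b, and at 0% to 3.72% in XO 3, 5 and 6, against 3.23% in MEF 5, for Rbm46. Promoters not called included Tdrd1, at 86.2%, 60.9%, 58.1% and 50% in XO 3, 5, 6 and 9, against 66.7% and 78.6% in MEF, and Sycp1, at 77.2%, 66.2%, 50.6% and 50%, against 64.8% and 73.4%. XO 3 was above both MEF libraries at both genes. With promoters placed by 4 to 7 CpGs added, 13 of 24 were lower and none higher, beside 6.43% lower and 1.52% higher of all 8202 genes so placed. D1Pas1, Rpl10l and the imprinted Mcts2 are retrocopies of X-linked genes, and whether reads were shared with the parent genes was not tested. The additions were Rpl10l, a retrogene used in spermatocytes (-67.4 points, adjusted p = 0.00289, lost without MEF 5 with adjusted p = 0.153), and Dkkl1, a sperm acrosome gene (-47.7 points, adjusted p = 7.02e-05). The Dkkl1 value depended on how CpGs were weighted, being -30.7 points over the CpGs read in each library and -2.87 points, too little for a call, over unweighted CpG levels, and its 300-base promoter had no library with enough reads.

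**Figure D5:**
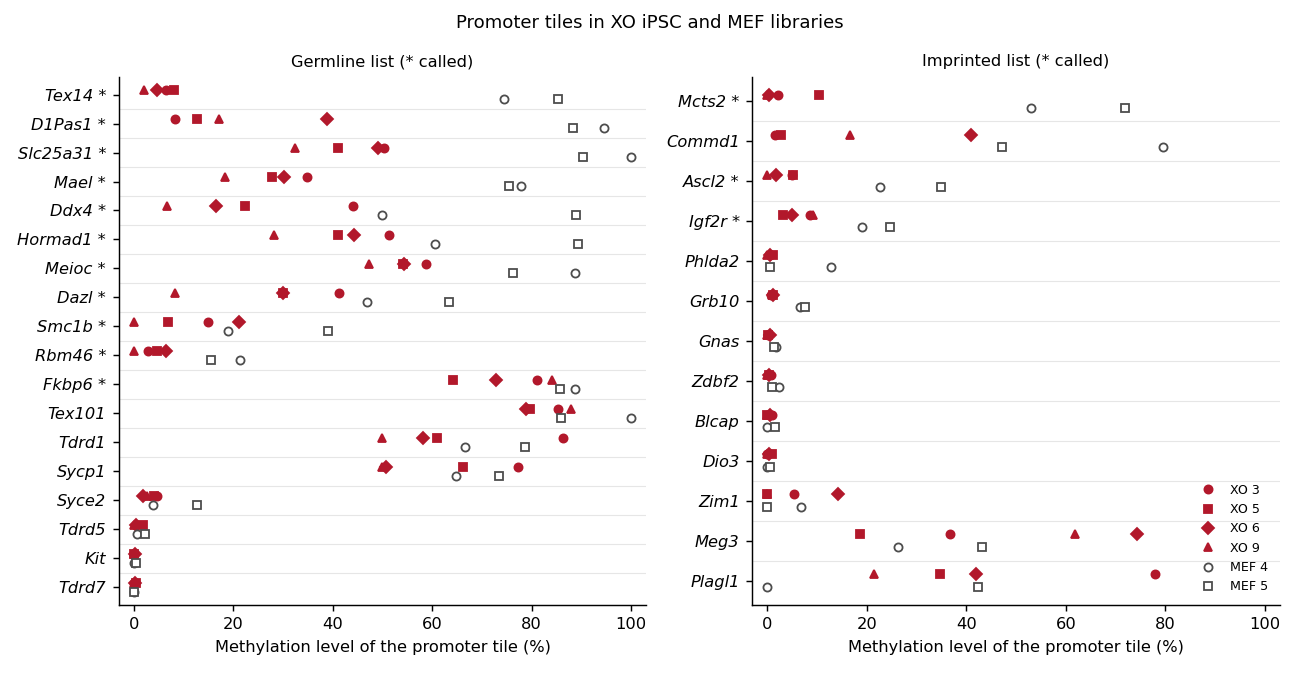
Methylation level (%, horizontal axis) of the promoter tile in each XO iPSC (filled red) and MEF (open grey) library for the germline (left) and imprinted (right) lists; an asterisk marks called tiles. Tex14 and D1Pas1 separate fully, while Tdrd1, Sycp1, Meg3 and Plagl1 overlap.

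The letters of the germline promoters were compared in the 300-base RefSeq windows, both strands being searched. CACGTG, an E-box that reads the same on both strands, was found in 6 of the 11 called and 3 of the 7 uncalled germline promoters and in 7.15% of 32851 RefSeq promoters. GCGGGA or its reverse complement TCCCGC was found in 9 of the 11, 4 of the 7 and 19.98% of all. The germline promoters were placed by 8 or more CpGs, whereas only 15382 of 31396 autosomal RefSeq promoters hold that many. Both motifs contain a CpG, so the shares over all promoters are not a like background for the germline counts. These are counts of letters, and the called and uncalled germline promoters are too few to be set apart by them.

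Several imprinted promoters differed widely among the XO libraries. Mcts2, an imprinted retrogene inside H13 whose promoter is normally methylated on one parental allele, was at 2.23%, 10.3%, 0.402% and 0% in XO 3, 5, 6 and 9, against 53.1% and 71.9% in MEF 4 and 5 (-59.3 points, adjusted p = 0.00193, lost without MEF 5). All XO libraries were near zero, while the male iPSC libraries were at 44.0% to 58.4% and the XaXa libraries at 1.76% and 2.07%. Commd1, at the Zrsr1 imprinted region, was at 1.56%, 2.82%, 41.0% and 16.7% in XO iPSC, against 79.4% and 47.2% in MEF. XO 6 stood apart, and the tile was not called (adjusted p = 0.338, called without XO 6). Meg3, a maternally expressed noncoding RNA gene, was at 36.7%, 18.6%, 74.3% and 61.8% in XO iPSC, against 26.3% and 43.2% in MEF, and Plagl1, a zinc finger gene, at 77.9%, 34.8%, 41.9% and 21.4%, against 0% and 42.3%. At both the XO libraries lay on either side of a MEF library and no call was made. Of the 13 imprinted promoters tested, Mcts2, Ascl2 (-25.8 points) and Igf2r (-15.3 points) were lower, 23.1% beside 5.28% of all genes. Above 50% in MEF, 1 of 2 imprinted promoters was called lower, beside 55.8% of all such promoters. Ascl2 and Igf2r did not hold under every setting, and the Igf2r tile holds a recurrent array. Igf2r lost its call without MEF 5 (adjusted p = 0.0880) and differed by -3.60 points over unweighted CpG levels. Ascl2 differed by -6.30 points over these, and its 300-base promoter averaged 1.41% in XO iPSC and 0% in MEF, so its loss lay beside the promoter. Over unweighted CpG levels 1 of the 13 was called lower.

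Promoters of pluripotency and fibroblast genes served as a check of the cell types. Zfp42, a marker of naive pluripotency also known as Rex1, was at 1.01%, 2.48%, 2.08% and 3.64% in XO 3, 5, 6 and 9, against 44.1% and 64.7% in MEF 4 and 5 (-52.1 points, adjusted p = 7.94e-05), and was placed by 4 to 7 CpGs. Nr5a2 was at 0% to 1.92%, against 11.3% and 15.5% (-12.7 points, adjusted p = 0.00282), lost its call without MEF 5 (adjusted p = 0.0946) and differed by -6.47 points over unweighted CpG levels. Esrrb, another pluripotency factor, went the other way, at 68.6%, 72.0%, 76.2% and 60.0% in XO iPSC, against 34.8% and 52.0% in MEF (25.8 points, adjusted p = 0.0467, lost without any one of the 6 libraries). These are 2 lower and 1 higher of 12, beside 6.43% and 1.52% of all genes placed by 4 or more CpGs, and of the 8 placed by 8 or more CpGs none was called. The remaining 9 of 12 tested pluripotency promoters differed by less than 10 points and included Klf4, Fgf4 and Tet1 near zero in both groups, so they do not distinguish the cell types. Tiles of Pou5f1, Nanog and Sox2 were not analysed here.

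In the other lists 0 or 1 promoter was called, beside 5.28% lower and 1.09% higher of all genes, and counts this small cannot be set apart from those shares. Krt18, a keratin of simple epithelia, was lower in XO iPSC, at 2.31%, 11.5%, 3.25% and 0%, against 32.9% and 28.9% in MEF (-26.6 points, adjusted p = 0.00152, lost without MEF 5), 1 of 4 epithelial promoters. Hic1, a repressor expressed in mesenchyme, was the only 1 of 14 fibroblast promoters to be called (-25.3 points, adjusted p = 0.00831, lost without either MEF library), and 9 of the 14, among them Vim and Runx1, were below 10% in all 6 libraries. Dnmt3a, a de novo methyltransferase gene, was at 2.80%, 0.405%, 0.562% and 0% in XO iPSC, against 15.6% and 20.5% in MEF (-17.1 points, adjusted p = 0.000502), 1 of 10 genes of the methylation machinery. Over the CpGs read in each of the 6 libraries it differed by -4.46 points, too little for a call. None of 8 HOX promoters was called. Hoxa5 came nearest, at 22.2%, 4.19%, 2.05% and 3.45% in XO 3, 5, 6 and 9, against 28.3% and 40.2% in MEF (adjusted p = 0.0567).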

How the data were processed

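RRBS tables of 13 libraries were used, 4 of XO iPSC and 2 of MEF entering every test. Per the submitters' processing notes, reads were aligned with BSMAP to mm9; versions, trimming and the treatment of multiply placed reads were not given in the sources used here. At every CpG covered, the deposited tables give a count of total reads, a count of methylated reads and the quotient of these as a fraction. Counts were used and fractions only checked. Methylated and total counts were summed over 1 kb tiles with 3 or more CpGs and 10 or more reads in each of the 6 libraries. PCR reads without molecular identifiers are not independent molecules.

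Each tile was tested with a quasi-binomial model (Pearson dispersion, moderated by limma 3.58.1 in R 4.3.3, not below 1, F test), with Benjamini-Hochberg adjustment over all 78567 tiles. A call needed an adjusted p under 0.05 and 10 points between unweighted group means. Single values per library were compared by the exact two-sided permutation test. On 1000 simulated tiles the model called 61 of 100 tiles changed by 20 points, 98 of 100 changed by 40 points and 2 of 800 unchanged ones. The simulated counts had the same added spread in every tile and no reads shared between CpGs. These numbers are therefore not error rates of the real tiles. Other work used Python 3.11.15 with numpy 2.4.6, pandas 2.3.3 and scipy 1.17.1.

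RefSeq promoters (250 bases before to 50 after the start, GRCm38.p6) were placed in the mm9 tables by the spacing and bases of their CpGs: 10499 of 31396 autosomal promoters (9238 genes) by 8 or more CpGs, 99.8% of them in the RefSeq order. Named were the 10 largest called tiles with 5 or more CpGs in each library and no overlap between groups, the 10 largest called promoter tiles in each direction, and every called listed gene, with up to 4 others per list. Members, lists and tests were chosen with earlier results of these data known. Alternatives changed the read and CpG minimum, the test, the averaging and the libraries.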

Additional observations from a re-analysis of the deposited data

Results flagged for a closer look

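In groups of 4 libraries, 1 library stood apart from the other 3 by Dixon's 95% criterion in 5 of the 116 named tiles and group values examined, where chance gives about 1 in 20. The gained tile on chromosome 1 from 78816001 was at 82.0% in XO 3, below 87.8% in the next XO library. The promoter tile of Mybbp1a was at 1.17% in XO 6 and at 0% in the other XO libraries. The promoter tile of Neurod2, the neuronal factor gene, was at 57.1% in XO 9, the shallowest library, above 27.2% in the next. The promoter tile of Dkkl1 was at 4.17% in XO 9, below 8.10% in the next. The mean over family 5 of the recurrent CpG arrays was 87.7% in XO 9, below 91.0% in the next XO library.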

How the results depend on the processing

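Over 11 main results and 23 settings, 162 recomputed values moved by less than the spread of the XO libraries (counts by at most 1.5 times), 31 moved by more and 1 reversed; the permutation test of the means could not pass 0.05, so its side of that threshold says nothing. With 50 or more reads per tile the differences were -0.0313 points below 20% in MEF (exact permutation p = 0.933), -12.2 at 20% to 80%, -20.9 above 80% and -9.14 in tiles of 20 to 39 CpGs (against -12.4), and the density contrast was -8.78. With 10 or more reads per CpG in each library they were -7.82 points at 20% to 80%, -6.14 with 20 to 39 CpGs and -3.35 with 40 or more (against -6.26), and the contrast was -0.553. With the class from MEF 4 and the difference from MEF 5, 0.5001 and -7.19 points were found below 20% and at 20% to 80%. With density from CpGs read in each library, tiles of 20 to 39 CpGs (717 tiles) differed by -7.86 points. Those of 40 or more CpGs differed by -16.2 points, a value from only 4 tiles. In this setting tiles of 3 to 9 and 10 to 19 CpGs differed by -7.35 (61620 tiles) and -9.02 points (7225 tiles). Without tiles holding a recurrent array, chosen after seeing the data, tiles of 20 to 39 and 40 or more CpGs differed by -7.97 and -2.49 points. Lower and higher tiles numbered 8755 and 2584 with 20 or more reads, 1470 and 239 with 50 or more reads, 9297 and 2137 with 5 or more CpGs, 9848 and 2985 with CpGs read in each library, and 315 and 61 where those had 10 or more reads, all with fewer tiles tested. With limma 3050 tiles were higher. XO 6 alone against MEF gave 0 and 0 in the quasi-binomial test (1 residual degree of freedom), where 20057 tiles had an unadjusted p under 0.05. Leaving out 1 library at a time gave 3910 (without MEF 5) to 14766 lower and 1445 (without MEF 5) to 4479 higher tiles, a mean difference of -8.39 to -5.90 points, 1.27 (without MEF 4) to 4.13 (without MEF 5) points below 20% in MEF, and a contrast of -15.3 to -11.9 points. Of the 59 single tiles and promoters named, 780 recomputed values held, 77 lost their call, 22 of them without MEF 5, and Gm30881 reversed to -3.22 points over unweighted CpG levels with reads capped at 200 per CpG. That averaging moved 15 of 39 named promoter tiles, Jade1 apart, by over 1.5 times and ended 8 calls. The median of the HOX promoters was 0.215 points in a window widened by 500 bases on each side, against -0.249 points. The cause of these changes was not tested. No paired analysis was possible because the XO iPSC and MEF libraries share only the number 5. Depth limits the tiles: the median was 24 reads in XO 9 and 44 in MEF 4.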
